A study of Rattus norvegicus with 16 samples.

Results

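CA1 was compared with CA2 in the rat hippocampus, using the 4 CA1 and 4 CA2 libraries among the 16 libraries of the series, chosen by the subfield in their labels, which made 7 of 14 samples after repeated columns were summed. The question was which genes separate the pyramidal layers of these neighbouring subfields, how large and how abundant the differences are, and whether the CA2 values lie toward CA3 or past it. All animals were male Wistar rats aged 3 months, and no treatment is named for any of them. Laser capture microdissection (LCM), which cuts a chosen cell layer out of a stained brain section, gave the pyramidal cell layer of each CA subfield and the granule cells of the dentate gyrus (DG). The study identified the subfields with a rat brain atlas. It told CA2 apart by pyramidal cells that looked more like CA3 than CA1 cells but were packed more tightly than in CA3. Likeness to CA3 was thus part of how the CA2 layer was chosen. The study used 4 rats. The fit used here has no term for the rat, since the labels do not say whether a shared replicate number stands for 1 animal.

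CA1 pyramidal neurons are the main output cells of the hippocampus and receive most of their excitation from CA3 through the Schaffer collaterals. CA2 is a narrow band between CA1 and CA3, whose neurons get direct entorhinal input, show little of the usual synaptic potentiation at the Schaffer collateral synapses and are known for a part in social memory. Its neurons are also known for strong calcium handling and for a dense extracellular matrix around their cell bodies. Subfields of this kind are told apart in tissue by marker genes such as Wfs1 and Ndst4 for CA1 and Amigo2 and Cacng5 for CA2.

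Replicates 1 to 4 of CA1 held 9025034, 10332244, 8426211 and 3216512 counts, and those of CA2 held 6554905, 4467280, 10228999 and 5810318. CA2 replicates 2 and 4 were no further apart than sampling noise alone, with a chi-square of 1.0 per degree of freedom over 12995 genes (p = 0.456), while the other 11 pairs within CA1 or within CA2 gave between 2.80 and 13.4. They were therefore summed and counted as 1 sample of 10277598 counts, called CA2 2+4 below. DG replicates 2 and 4, with a chi-square of 1.04 per degree of freedom over 13766 genes (p = 0.00176), were a little further apart than sampling noise. They were summed as well, since the limit used was 1.5 per degree of freedom. This left 4 CA1, 3 CA2, 4 CA3 and 3 DG samples. Levels are given in CPM, the counts divided by the TMM-scaled library size. They are not corrected for gene length, so abundant here means rich in counts. The upper limit for a gene with 0 counts, taken as 3 counts, was 0.309, 0.276, 0.348 and 0.928 CPM in the CA1 samples and 0.469, 0.309 and 0.309 CPM in the CA2 samples, so genes under about 1 CPM are the least precise. Such limits cover counting error only.

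Some libraries stood apart from the others of their subfield. The samples numbered 1 deviated from their group means in the same way in all 4 subfields, with correlations of 0.670 to 0.729 across 7338 genes between the 6 pairs of them. The 18 pairs that share another number gave -0.163 to 0.519, a range that is itself shifted by taking deviations from group means. Genes are not independent replicates, so these values are descriptions. The leading counts below are therefore also given without these 4 samples, a setting chosen after the data were seen. CA3 replicate 2 and CA2 2+4 held more of the transcripts that mark CA1 than the other samples of their subfields. For the 34 genes that the study lists for CA1, the summed level was 2235, 2142, 1994 and 2049 CPM in CA1 replicates 1 to 4. It was 239, 516 and 373 CPM in CA2 1, 2+4 and 3, and 122.7, 336, 146 and 128 CPM in CA3 replicates 1 to 4. Wfs1 was the most abundant of them. The part of these libraries in the results below was not tested beyond the fits that leave them out.

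**Figure D1:**
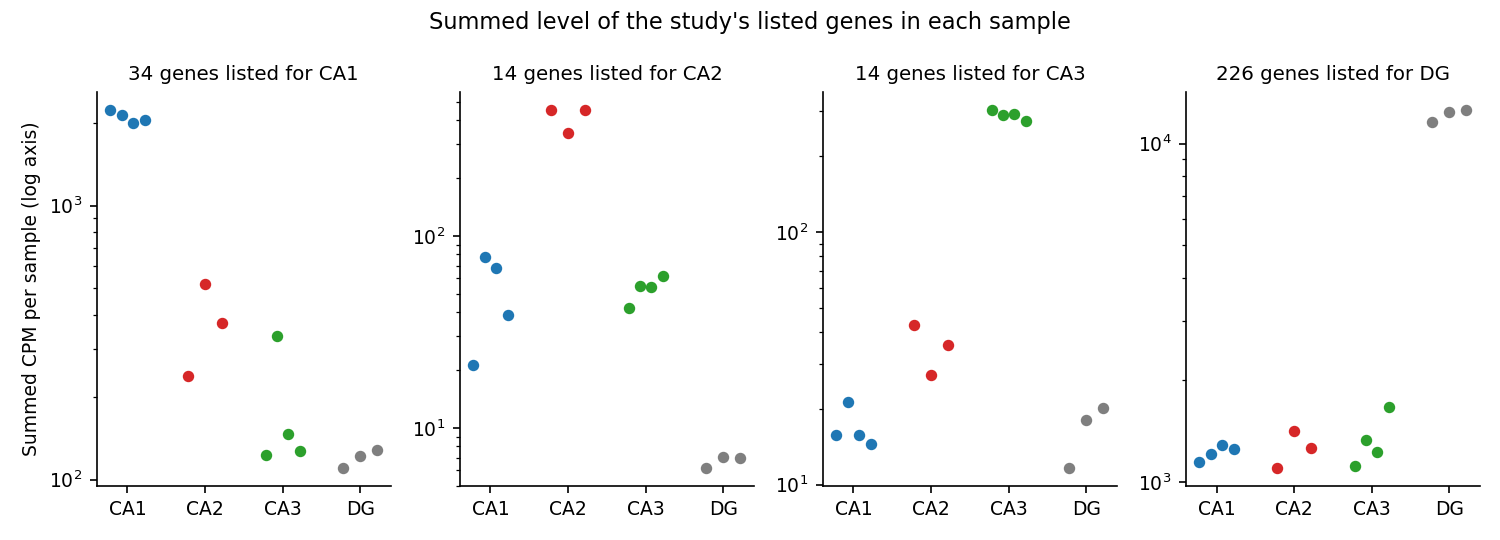
Summed level in CPM (log axis) of the genes that the study lists for CA1, CA2, CA3 and DG, with 1 point for each sample of the 4 subfields. The CA1 list summed to between 239 and 516 CPM in the CA2 samples, and CA3 replicate 2 (336 CPM) lay above the other CA3 samples.

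Of 32883 genes in the table, 17174 had more than 10 counts over all samples and were tested by edgeR's quasi-likelihood test. At a Benjamini-Hochberg adjusted p under 0.05, 2458 genes (14.3% of those tested) separated CA1 from CA2. Of these, 1084 (6.31%) were higher in CA1 and 1374 (8%) were higher in CA2. At an unadjusted p under 0.05 there were 4485. In 2325 of the 2458 genes, all samples of one subfield lay above all samples of the other, and in 133 the samples overlapped. Genes called for a difference tend to separate in this way, so this count is no further evidence. The share over all genes tested is not given here. Without the 4 samples numbered 1, the count was 1756, with 786 genes higher in CA1 and 970 higher in CA2, and 1661 of the 1756 were among the 2458. The p-values and standard errors rest on a spread estimated for each gene over all 14 samples of the 4 subfields. They thus also carry the spread within CA3 and DG, and CA2 has only 3 samples. Fewer cells of a type in the captured layer and less RNA per cell cannot be told apart in such bulk samples.

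Most of the differences were small. A fold of 2 or more was reached by 889 genes (5.18% of those tested), 444 of them higher in CA1 and 445 higher in CA2, and the other 1569 called genes (63.8%) differed by less. A fold of 4 or more was reached by 239 genes, 109 higher in CA1 and 130 higher in CA2. The median log2 fold change of CA1 over CA2 was 0.83 among the genes higher in CA1 and -0.72 among those higher in CA2, against -0.0076 over all genes tested. Without the samples numbered 1, 673 called genes had a fold of 2 or more.

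The share of genes called rose with abundance while the size of the differences shrank. Abundance was taken as the mean of the CA1 and CA2 group means. Under 1 CPM, 112 of 4235 genes were called (2.64%), and their median log2 difference was 2.86 in size, with 3 counts or fewer in the lower subfield for 57 of them. From 1 to 10 CPM, 574 of 4252 genes were called (13.5%), with a median size of 1.23. From 10 to 100 CPM the count was 1254 of 6923 (18.1%), with a median size of 0.65. At 100 CPM and over, 518 of 1764 genes were called (29.4%), with a median size of 0.52. In this most abundant class, 341 genes were higher in CA2 and 177 higher in CA1. Only 10 of the 518 differed 4-fold or more, 6 of them higher in CA1 and 4 higher in CA2. The smallest called difference was 0.26 on the log2 scale in the most abundant class and 1.31 under 1 CPM, so smaller differences passed the test in the more abundant genes.

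**Figure D2:**
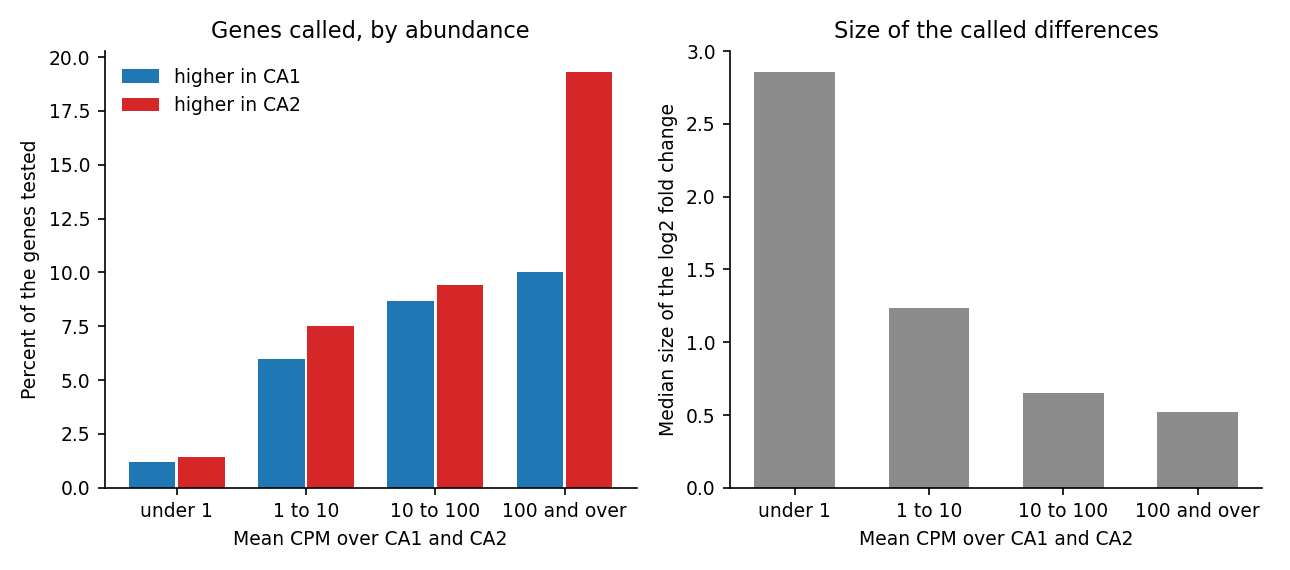
Left, the percent of the tested genes in each class of mean CPM that were higher in CA1 or higher in CA2 at an adjusted p under 0.05. Right, the median size of the log2 fold change among the genes called in each class, which was 2.86 under 1 CPM and 0.52 at 100 CPM and over.

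**Figure D3:**
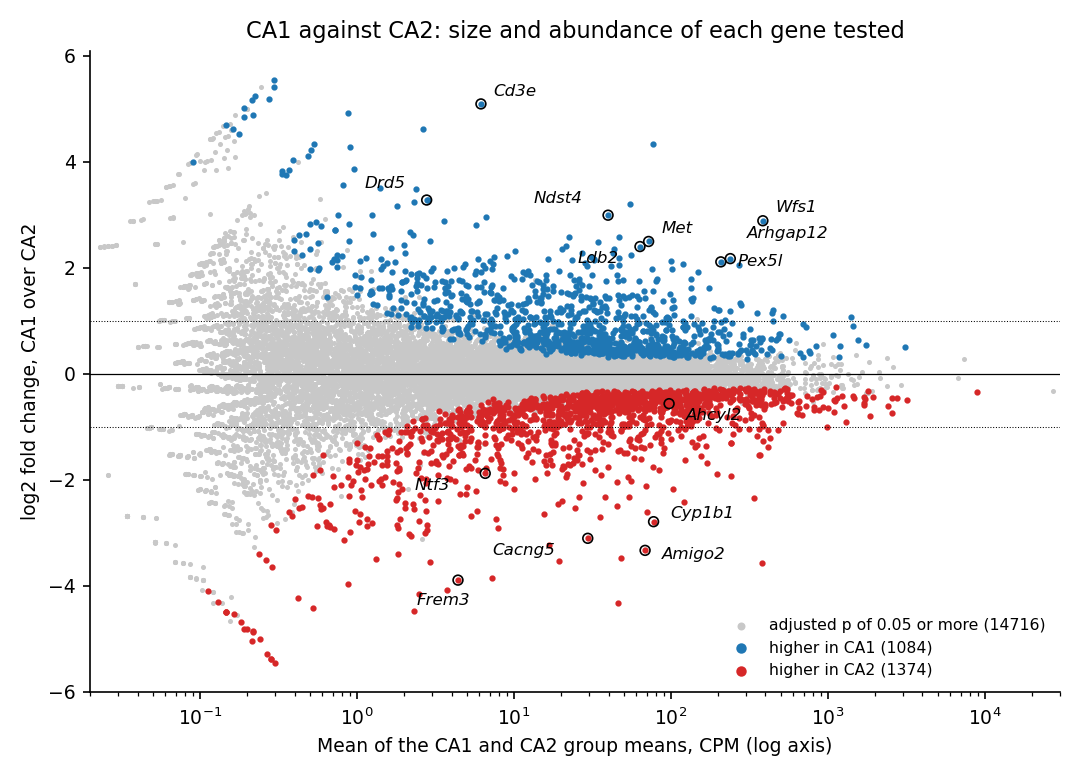
The log2 fold change of CA1 over CA2 (vertical axis) against the mean of the CA1 and CA2 group means in CPM (log axis), with 1 point for each gene above 0 CPM. Blue points are the 1084 genes higher in CA1, red points the 1374 genes higher in CA2, grey points the other genes, and dotted lines mark a fold of 2.

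Genes are listed by Ensembl identifier, and the study's supplement pairs 288 of the identifiers with a symbol, all of which were tested. These are genes that the study lists as marking CA1 (34), CA2 (14), CA3 (14) or DG (226), so 2370 of the 2458 called genes have no symbol here. Of the 288, 88 were called, and the count of any gene list below covers only members that the study picked as markers on these samples. All 34 genes of the CA1 list were higher in CA1 and all 14 genes of the CA2 list were higher in CA2, with median log2 fold changes of CA1 over CA2 of 2.6 and -2.93. The study chose both lists on these samples, so their direction is no independent evidence. Without the samples numbered 1, 4 genes of the CA1 list were not called, among them AABR07070872.1 (adjusted p = 0.175), Mybpc2 (0.124) and AABR07044001.4 (0.0558), and neither was Glipr2 of the CA2 list. Without CA2 3, 3 genes of the CA1 list were not called, namely AABR07070872.1 (adjusted p = 0.0784), AABR07061707.1 (0.0740) and Mybpc2 (0.0678). Without CA2 2+4 they were AY172581.19 (adjusted p = 0.121) and AABR07061707.1 (0.0525). For the 29 genes of the CA1 list with more than 3 counts in CA2, the median was 2.49.

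Among the genes that the study lists for CA1, the most abundant were Wfs1, Arhgap12, Pex5l, Met, Ldb2, Olfm3 and Ndst4, at mean levels between 70.6 and 679 CPM in CA1. They were between 4.32-fold (Pex5l) and 7.95-fold (Ndst4) lower in CA2. They include markers of CA1 neurons, an ion channel subunit, a growth factor receptor and a heparan sulfate enzyme. The serotonin receptors Htr5b and Htr1b, the dopamine receptor Drd5 and the galanin receptor Galr1 were higher in CA1 too, at lower levels. Of the 14 CA1 pyramidal markers listed for this comparison, 6 have an identifier, and all 6 were higher in CA1 (median log2 fold change 2.49), among them Wfs1, Ldb2, Ndst4, Pex5l and Htr5b, against 6.31% of all genes tested. All 6 are on the study's CA1 list, so nothing is read from this count.

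Wfs1 (ENSRNOG00000005108) encodes wolframin, a membrane protein of the endoplasmic reticulum. It had 776, 712, 610.4 and 616 CPM in CA1 replicates 1 to 4 and 53.6, 134 and 86.8 CPM in CA2 1, 2+4 and 3. Every CA1 sample was thus more than 4-fold above every CA2 sample, and CA2 2+4 was the highest of the CA2 samples. The log2 fold change was 2.89 (edgeR adjusted p = 9.52e-04, standard error 0.56). Without CA3 replicate 2 the log2 fold change of CA1 over CA2 was again 2.89, with an edgeR adjusted p of 4.45e-08. Pex5l (ENSRNOG00000011211), an auxiliary subunit of the HCN channels, had 292, 329, 355 and 375 CPM in CA1 and 46.0, 105 and 81.9 CPM in CA2. Its log2 fold change was 2.11 (standard error 0.22), and CA2 2+4 was again the highest of the CA2 samples. Over the 34 genes of the CA1 list, CA2 2+4 was the highest CA2 sample for 25 and CA2 1 the lowest for 25.

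A regulator of transcription was among the genes higher in CA1. Ldb2 (ENSRNOG00000003205), a cofactor that binds LIM-domain proteins, had 117, 97.7, 101 and 112 CPM in CA1 and 17.8, 27.1 and 15.4 CPM in CA2. All CA1 samples were more than 3-fold above all CA2 samples. The gene had the smallest p of the named genes higher in CA1, with a log2 fold change of 2.40 (edgeR adjusted p = 2.01e-08, standard error 0.19). Prox1, the granule cell factor, passed in neither direction, at 3.69 CPM in CA1 and 6.11 CPM in CA2.

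Receptors differed in both directions. The list of receptors for monoamines, acetylcholine, adenosine and peptides made for this comparison is not complete. Of its 9 members with an identifier, 4 were higher in CA1, 1 was higher in CA2 and 4 passed in neither direction, against 6.31% and 8% of all genes tested in each direction. The 4 higher in CA1 are on the study's CA1 list and the 1 higher in CA2 on its CA2 list. Outside these 9, the peptide receptors Trhr and Ghsr, on the study's DG list, were called as well, Trhr higher in CA1 and Ghsr higher in CA2. The serotonin receptor Htr5b (ENSRNOG00000002549) had 55.1, 54.8, 56.3 and 45.8 CPM in CA1 and 6.88, 16.3 and 12.4 CPM in CA2, a log2 fold change of 2.14 (standard error 0.31). Htr1b (ENSRNOG00000013042), an inhibitory serotonin receptor, had 31.4, 36.8, 42.5 and 33.4 CPM in CA1 and 3.75, 9.49 and 6.69 CPM in CA2, a log2 fold change of 2.40 (standard error 0.40). The groups did not overlap for either gene. The dopamine receptor Drd5 had 5.98, 4.88, 7.19 and 2.17 CPM in CA1 and 0.156, 0.928 and 0.412 CPM in CA2, and the galanin receptor Galr1 had 7.53, 3.22, 3.59 and 3.09 CPM in CA1 and 0.313, 0.516 and 0.309 CPM in CA2. These last levels are low, with 14 counts of Drd5 and 10 counts of Galr1 over all CA2 samples, so their log2 fold changes of 3.28 (standard error 0.53) and 3.49 (standard error 0.51) are less precise. The member higher in CA2 was the calcium-sensing receptor Casr. Drd1, Hcrtr2, Tacr2 and Adra2b did not pass the test, and the median over the 9 was 0.03.

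Growth factors and their receptors differed in both directions. Of the 7 that have an identifier and are on the list made for this comparison, which leaves out Epgn and Kitlg, 3 were higher in CA1 (Met, Wnt3a and Tgfb2), 2 were higher in CA2 (Ntf3 and Sfrp2), and Fgfr4 and Nrg2 passed in neither direction, against 14.3% of all genes tested called. Met and Wnt3a are on the study's CA1 list, Sfrp2 on its CA2 list and the other 4 on its DG list. Met (ENSRNOG00000052745), the receptor of hepatocyte growth factor, had 116, 106, 121 and 148 CPM in CA1 and 10.9, 31.2 and 21.7 CPM in CA2, with a log2 fold change of 2.49 (edgeR adjusted p = 1.13e-04, standard error 0.39). Without CA3 replicate 2 the edgeR adjusted p of Met was 3.42e-07. The secreted ligand Wnt3a had 4.02, 1.84, 3.59 and 0.928 CPM in CA1 and 0.156, 0.309 and 0.206 CPM in CA2, on 6 counts in all CA2 samples. Epgn, a ligand of the epidermal growth factor receptor, had 7.11 to 8.66 CPM in CA1 and 1.65 to 2.03 CPM in CA2, a log2 fold change of 2.08, and Kitlg passed in neither direction.

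Olfm3, Ndst4, Gabrr2, Cdh6 and Arhgap12 were also higher in CA1. Olfm3 (ENSRNOG00000017969), an olfactomedin found with AMPA receptors, had 85.6, 88.7, 72.7 and 73.6 CPM in CA1 and 11.9, 13.4 and 14.8 CPM in CA2, a log2 fold change of 2.58 (standard error 0.21). Ndst4, an enzyme that sulfates heparan sulfate, had 77.5, 67.9, 76.1 and 60.9 CPM in CA1 and 7.66, 8.46 and 10.4 CPM in CA2, a log2 fold change of 2.99 (standard error 0.30). All 3 CA2 samples were close to each other for both genes. Gabrr2, a subunit of GABA receptors, had 12.9 to 17.6 CPM in CA1 and 2.03 to 4.12 CPM in CA2 (log2 fold change 2.22), and Cdh6, a classical cadherin, had 15.0 to 19.2 CPM in CA1 and 2.37 to 5.16 CPM in CA2 (log2 fold change 2.31). Arhgap12, which switches off small GTPases, reached 347 to 434 CPM in CA1 against 57.8 to 114 CPM in CA2 (log2 fold change 2.17).

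The largest fold among named genes of at least 5 CPM belonged to Cd3e, known as a subunit of the T cell receptor complex. It had 19.2, 13.4, 6.95 and 8.35 CPM in CA1 and 0.156, 0.619 and 0.206 CPM in CA2, a log2 fold change of 5.09 (standard error 0.64). CA2 held 9 counts of Cd3e in all, and the CA1 samples spread almost 3-fold. Ackr2, a scavenger receptor of chemokines, had 10.5 to 12.7 CPM in CA1 and 0.782 to 2.17 CPM in CA2 (log2 fold change 2.96). The other genes of the CA1 list had means of at most 45.0 CPM in CA1. Among them were RGD1563354 (log2 fold change 2.16), AABR07044001.4 (2.82), Lyzl4 (log2 fold change 2.27), Spata18 (2.61), Aox3 (2.63), Diaph3 (2.19), the retinoic acid binding protein Crabp1 (2.0) and the synapse organiser Cbln1 (2.43). After thinning to the lowest total, Cbln1 (adjusted p = 0.0588) and Mybpc2 (0.0524) were not called. Cdk15, Mybpc2, C1qtnf7, AABR07061707.1 and AABR07070872.1 held 3 counts or fewer in all CA2 samples, so no fold is given for them. The CA1 and CA2 samples overlapped in 2 genes of the list, AABR07061707.1 and AY172581.19. The latter had 1.13, 33.5, 2.09 and 3.40 CPM in CA1 replicates 1 to 4 and 0.782, 0.619 and 2.99 CPM in CA2, so its mean rests on CA1 replicate 2.

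**Figure D4:**
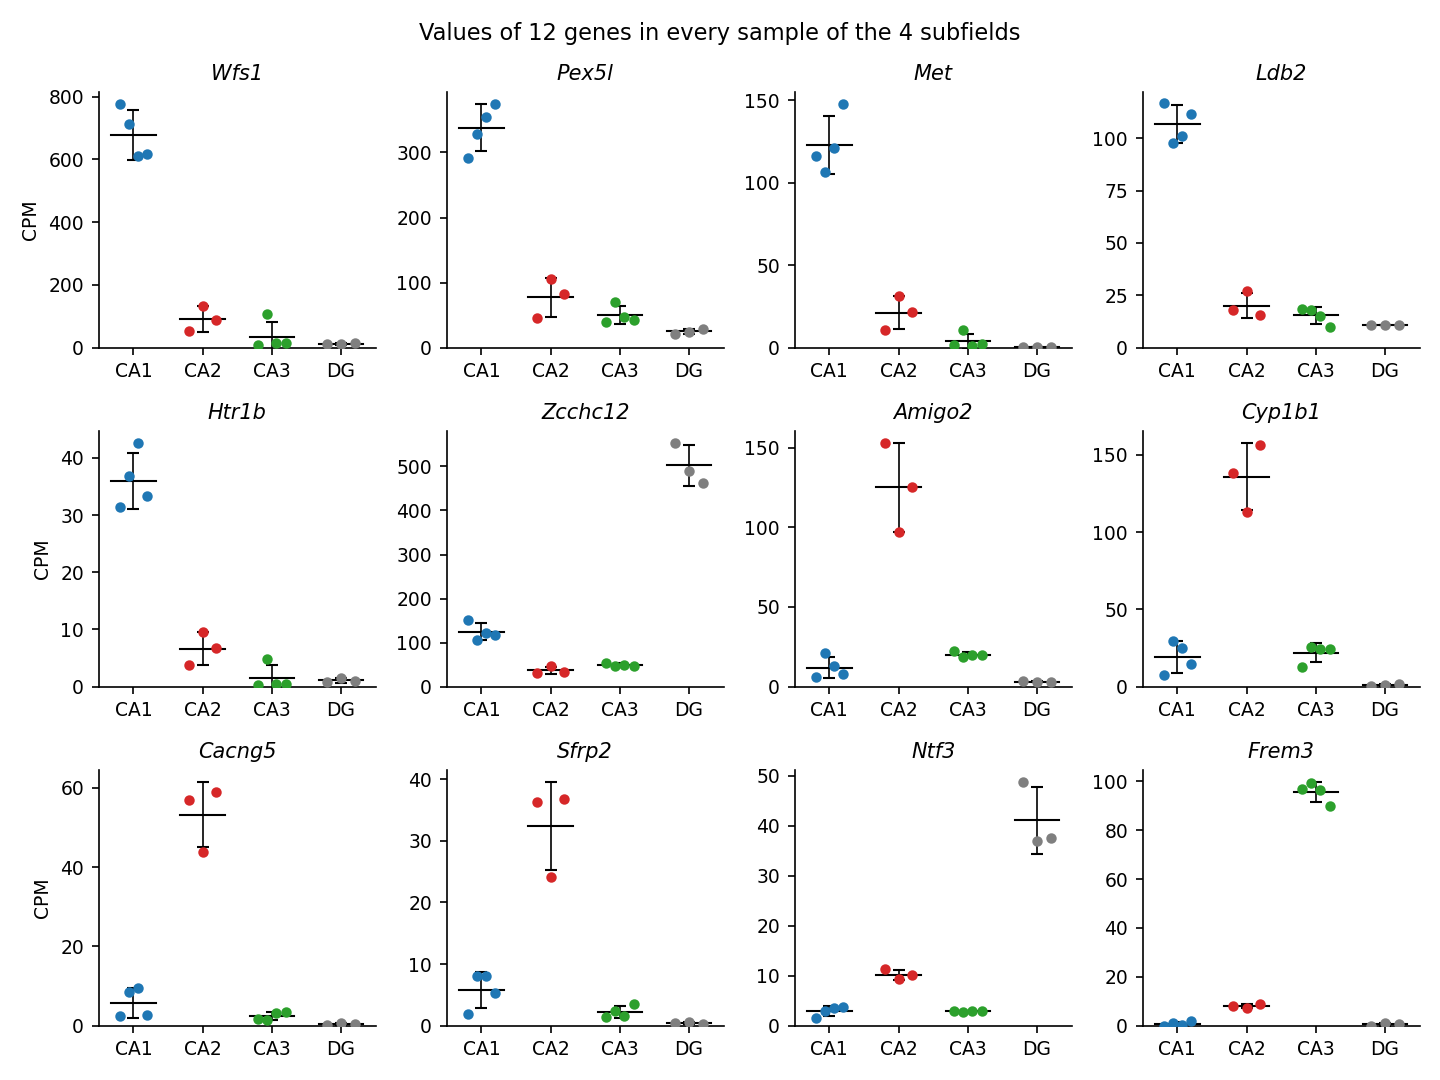
Level in CPM of 12 named genes in each sample (points) of CA1, CA2, CA3 and DG, with the mean (line) and SD (bar) of each group. Wfs1, Pex5l, Met, Ldb2 and Htr1b were highest in CA1, Amigo2, Cyp1b1, Cacng5 and Sfrp2 in CA2, Frem3 in CA3, and Zcchc12 and Ntf3 in DG.

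Among the genes that the study lists for CA2, Cyp1b1, Amigo2, Cacng5 and Sfrp2 were the most abundant, at mean levels between 32.4 and 136 CPM in CA2. They were between 5.52-fold (Sfrp2) and 10.1-fold (Amigo2) lower in CA1. They encode an oxidising enzyme, an adhesion protein, an auxiliary subunit of AMPA receptors and a secreted Wnt antagonist. Of the 20 CA2 pyramidal markers listed for this comparison, 4 have an identifier (Amigo2, Cacng5, Ntf3 and Ccdc3), and all 4 were higher in CA2 (median log2 fold change of CA1 over CA2 -3.08), against 8% of all genes tested. Amigo2, Cacng5 and Ccdc3 are on the study's CA2 list and Ntf3 on its DG list, so nothing is read from this count. The other marker genes of CA2 were not analysed here, since no symbol is paired with their identifiers.

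Amigo2 (ENSRNOG00000007032), a leucine-rich adhesion protein and common CA2 marker, had 5.78, 20.8, 13.1 and 7.73 CPM in CA1 replicates 1 to 4 and 153, 96.7 and 126 CPM in CA2 1, 2+4 and 3. The log2 fold change of CA2 over CA1 was 3.33 (edgeR adjusted p = 1.80e-08, standard error 0.26), the smallest p of the named genes. CA2 2+4 was the lowest CA2 sample and CA1 replicate 2 the highest CA1 sample, and the groups lay more than 4-fold apart. Cyp1b1 (ENSRNOG00000040287), a cytochrome P450 that oxidises steroids and other lipids, had 7.32, 29.8, 24.8 and 14.8 CPM in CA1 and 138, 113 and 156 CPM in CA2, with a log2 fold change of CA2 over CA1 of 2.79 (standard error 0.29). Cacng5 (ENSRNOG00000003288), an auxiliary subunit of AMPA receptors, had 2.37, 8.38, 9.62 and 2.78 CPM in CA1 and 56.9, 43.8 and 58.9 CPM in CA2, with a log2 fold change of CA2 over CA1 of 3.10 (standard error 0.30). In these 3 genes CA1 replicates 2 and 3 held more than 2 times the level of CA1 replicate 1. The 14 genes of the CA2 list summed to 21.1, 77.2, 67.9 and 38.7 CPM in CA1 replicates 1 to 4 against 452, 344 and 453 CPM in CA2. Cyp1b1 was the most abundant gene of that list.

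Sfrp2, Papln, Ntf3, Spp1 and Ccdc3, which encode secreted proteins, were higher in CA2. Sfrp2 (ENSRNOG00000009465) had 1.86, 8.01, 8.0 and 5.26 CPM in CA1 and 36.3, 24.1 and 36.8 CPM in CA2, with a log2 fold change of CA2 over CA1 of 2.46 (standard error 0.30). The matrix glycoprotein Papln had 0.928, 2.49, 2.67 and 0.928 CPM in CA1 and 9.69, 17.8 and 14.9 CPM in CA2 (log2 fold change of CA2 over CA1 2.92), and unlike the genes above it was lowest in CA2 1. Ntf3 (ENSRNOG00000019716), a neurotrophin, had 1.55, 2.85, 3.48 and 3.71 CPM in CA1 and 11.3, 9.28 and 10.1 CPM in CA2, with a log2 fold change of CA2 over CA1 of 1.88 (edgeR adjusted p = 2.25e-06, standard error 0.21). All CA2 samples lay more than 2-fold above all CA1 samples. Spp1, the matrix protein osteopontin, had 0 to 0.552 CPM in CA1 and 2.16 to 5.94 CPM in CA2, on 10 counts in all CA1 samples. Ccdc3, a secreted protein, had 0 to 0.737 CPM in CA1 and 2.50 to 4.84 CPM in CA2. Of the rest of the CA2 list, AABR07001734.1 had 0.722 to 4.98 CPM in CA1 and 25.6 to 35.2 CPM in CA2, Fam72a had 0.0921 to 0.619 and 2.99 to 3.30 CPM, and Rtl3 had 0.184 to 1.86 and 2.47 to 3.44 CPM.

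Casr, Gabra6 and Glra1 were higher in CA2 at low levels. Casr, the calcium-sensing receptor, had 0.206, 0.921, 1.04 and 0.309 CPM in CA1 and 4.85, 2.89 and 4.33 CPM in CA2 (log2 fold change of CA2 over CA1 2.55, standard error 0.44). Gabra6, a subunit of GABA-A receptors, had 0.206, 1.20, 0.579 and 0.309 CPM in CA1 and 5.63, 5.05 and 4.33 CPM in CA2 (log2 fold change of CA2 over CA1 2.95, standard error 0.44). Glra1, a subunit of glycine receptors, had 0.309, 0, 0.464 and 0.309 CPM in CA1 and 0.938, 2.58 and 1.85 CPM in CA2. All CA2 samples lay above all CA1 samples for these genes, as for all 14 genes of the CA2 list. Of the 4 GABA receptor subunits with an identifier, Gabrr2 was thus higher in CA1 and Gabra6 in CA2, while Gabrd (11.4 CPM in CA1, 7.40 CPM in CA2) and Gabrr3 passed in neither direction, against 14.3% of all genes tested called. Gabrr2 and Gabra6 are on the study's CA1 and CA2 lists. Of the 5 potassium channels, Kcnc4 was higher in CA2 (5.16 to 6.91 CPM against 2.17 to 4.23 CPM in CA1, log2 fold change of CA2 over CA1 0.71), against 14.3% of all genes tested called. That call was lost without CA2 2+4 (adjusted p = 0.0820), without CA2 3 (0.0747), with the CA1 and CA2 samples alone (0.0515) and after thinning to the lowest total (0.0627). Glipr2, at 1.62 CPM in CA2, lost its call without CA2 1 (adjusted p = 0.0615) and without the samples numbered 1 (0.111).

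In the remaining lists few genes have an identifier, so the counts are too small to set against the 14.3% of all genes tested that were called. Of the AMPA receptor subunits and auxiliary proteins, Olfm3 was higher in CA1 and Cacng5 higher in CA2. Of the 3 cadherins, Cdh6 was higher in CA1 and Cdh13 higher in CA2 (log2 fold change of CA2 over CA1 0.55, a call lost after thinning with an adjusted p of 0.112), and Cdh23 passed in neither direction. Of the guidance receptors, Unc5d was higher in CA2 and Sema5a passed in neither direction. Of the calcium regulators, Casr was higher in CA2 and Ryr1 passed in neither direction. Grik3, Grm2, Tnc, Efna1, Ablim3, Mgst1, Unc13c and Btg2, the only members with an identifier in their lists of receptors, matrix, ephrin, actin, redox, vesicle and activity-regulated genes, passed in neither direction. The lists for interneurons, astrocytes, oligodendrocytes and their precursors, microglia, vessels, choroid plexus, excitatory neurons, voltage-gated calcium channels, oxidative phosphorylation, mitochondrial genes, glycolysis, the tricarboxylic acid cycle and ribosomal proteins hold no named identifier, and were not analysed here.

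For most genes that separated CA1 from CA2, the test did not tell CA2 from CA3. Each of the 2458 genes was placed by its CA2 to CA3 difference in the same fit, in which 1313 genes (7.65% of those tested) differed between CA2 and CA3. The comparisons share the CA2 samples and are given side by side. In 1837 of the 2458 genes (74.7%) CA2 was not apart from CA3, which does not show that the levels were equal. CA3 was called apart from CA1 in the same direction in 700 of the 846 higher in CA1 and 772 of the 991 higher in CA2. In the remaining 146 and 219 CA3 was told from neither neighbour. In 352 genes (14.3%) CA2 lay beyond CA3, that is, it differed from CA1 and from CA3 in the same direction. This class does not require that CA3 itself differed from CA1. In 269 genes (10.9%) CA2 lay between CA1 and CA3. With the replicate block, which takes a replicate number as 1 rat, 565, 639 or 679 genes lay beyond CA3 and 439, 470 or 601 between, with the summed samples entered at number 2, at number 4 or as their separate columns. Of the genes beyond CA3, 243 were higher in CA2 than in CA1 and CA3 and 109 were lower, with DG left aside, and 127 differed by 2-fold or more from both neighbours. CA3 was not called apart from CA1 in 166 of the 243 and 59 of the 109. It was called on the CA2 side of CA1 in 43 and 30, and on the opposite side in 34 and 20. The genes between split into 129 falling and 140 rising from CA1 to CA3.

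The median log2 fold changes differed between these classes. Among the 243 genes higher in CA2 than in CA1 and CA3, the median of CA1 over CA2 was -1.0 and that of CA2 over CA3 was 0.90, while CA1 over CA3 was -0.01. Among the 129 genes falling from CA1 through CA2 to CA3, the medians of CA1 over CA2 and CA2 over CA3 were 1.05 and 1.0. Among the 991 genes higher in CA2 and not apart from CA3, the median of CA1 over CA2 was -0.64. The counts of the smaller classes moved with single samples, since 220 genes lay beyond CA3 without CA2 3, and 157 and 163 lay between without CA2 2+4 and without CA2 3. Without the 4 samples numbered 1, 245 genes lay beyond CA3, 228 between and 1283 were not apart.

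As a measure that did not use the CA2 samples to choose genes, 1213 genes that differed between CA1 and CA3 by 2-fold or more were placed on a path from the CA1 mean (0) to the CA3 mean (1). The median position was 0.683 in CA2 1, 0.496 in CA2 2+4 and 0.639 in CA2 3, with a mean of 0.606 ± 0.0975 (SD, n = 3). The CA1 samples lay between -0.03 and 0.02 and the CA3 samples between 0.95 and 1.04, near the ends by construction, since these samples chose the genes and set both ends. CA2 thus lay between both, nearer to CA3 in CA2 1 and CA2 3 and midway in CA2 2+4, the sample with the most CA1-listed transcripts. The DG samples, which belong to another cell type, lay at 0.43, so a value near the middle is no sign of a gradient by itself. Averaged over the CA2 samples, 968 genes lay between 0 and 1, 163 lay above 1, past the CA3 mean, and 82 below 0, past the CA1 mean. For the 646 genes higher in CA1 than in CA3 the positions were 0.744, 0.428 and 0.626 in CA2 1, 2+4 and 3, and for the 567 genes higher in CA3 they were 0.632, 0.574 and 0.653. Without the samples numbered 1 the mean position was 0.561.

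**Figure D5:**
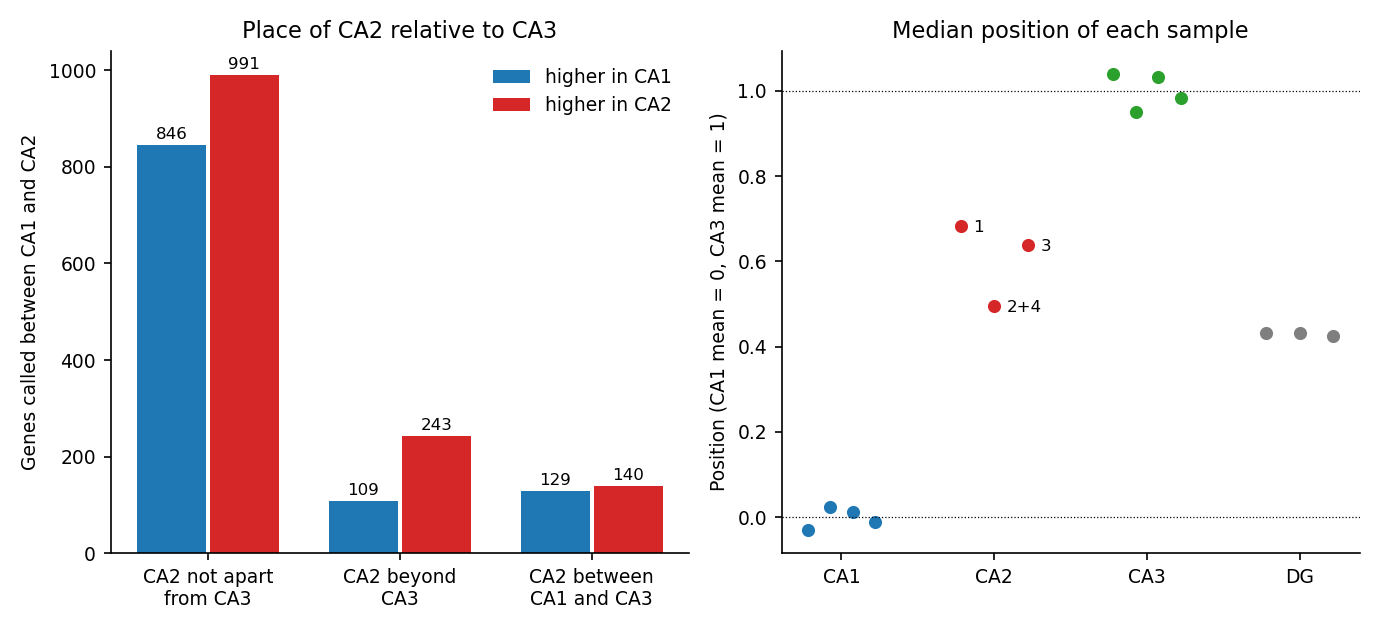
Left, the number of genes called between CA1 and CA2 whose CA2 level was not apart from CA3, beyond CA3 or between CA1 and CA3, for genes higher in CA1 (846, 109 and 129) and higher in CA2 (991, 243 and 140). Right, the median position of each sample (points) over 1213 genes on the path from the CA1 mean (0) to the CA3 mean (1), with the CA2 samples labelled.

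The strongest named markers of CA2 lay beyond CA3. All 14 genes of the CA2 list were placed there, but the study chose them as marking CA2 on these samples, so this is no independent evidence. Amigo2 had 22.1, 18.3, 20.1 and 20.1 CPM in CA3 replicates 1 to 4, and its log2 fold change of CA2 over CA3 was 2.63 (standard error 0.24) beside 3.33 over CA1. Cacng5 had 1.73, 1.55, 3.17 and 3.40 CPM in CA3, lower than in CA1, with a log2 fold change of CA2 over CA3 of 4.47 (standard error 0.33). Sfrp2 was also lower in CA3 than in CA1, at 1.36, 2.42, 1.59 and 3.57 CPM, with 3.89 over CA3 beside 2.46 over CA1. For Cyp1b1 the log2 fold changes over CA3 and over CA1 were nearly equal, at 2.63 and 2.79. Of the less abundant genes, Spp1 was not apart from CA3 without the samples numbered 1 (adjusted p = 0.0671), nor was Glra1 without CA2 2+4 (0.0537). Glipr2 was not apart without CA2 3 (adjusted p = 0.125) or CA3 replicate 2 (0.0902).

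Of the 38 called genes listed for DG, 12 lay beyond CA3 as well, 10 of them higher in CA2, against 14.3% of all called genes. The 12 became 8 without the samples numbered 1 and 9 without CA2 3. Ntf3 had 2.84, 2.76, 2.85 and 2.92 CPM in CA3 and 48.8, 37.0 and 37.5 CPM in DG, so CA2 rose to 10.2 CPM between near-equal CA1 and CA3 levels and stayed about 4-fold below DG. Rreb1, a zinc finger factor, had 10.8 to 12.6 CPM in CA2 against 3.30 to 5.25 CPM in CA1 and 3.70 to 8.27 CPM in CA3. Ahcyl2 differed by less, with little spread, at 109, 114 and 125 CPM in CA2 against 74.1 to 82.6 CPM in CA1 and 72.0 to 91.1 CPM in CA3, with log2 fold changes of CA2 of 0.56 over CA1 and 0.57 over CA3 (standard errors 0.10 and 0.10). The adenylyl cyclase Adcy1 had 114 to 150.1 CPM in CA2, 59.2 to 99.8 CPM in CA1 and 22.7 to 73.4 CPM in CA3. Tiam2, an activator of Rac, lay beyond CA3 with log2 fold changes of CA2 of 1.04 over CA1 and 0.74 over CA3, but was not apart from CA3 without CA2 3 (adjusted p = 0.0697). In the other direction, Tgfb2 and the thyrotropin-releasing hormone receptor Trhr were lowest in CA2. Trhr had 0.782, 1.44 and 1.54 CPM in CA2, 5.98, 3.77, 4.40 and 1.24 CPM in CA1 and 7.66, 5.10, 6.66 and 1.78 CPM in CA3, with CA1 replicate 4 inside the range of CA2 and CA3 replicate 4 just above it. Its call was lost without the samples numbered 1 (adjusted p = 0.0836) and after thinning to the lowest total (0.101). Tgfb2 had 3.44 to 6.19 CPM in CA2, 6.80 to 13.0 CPM in CA1 and 6.67 to 9.24 CPM in CA3, and was not apart from CA3 without CA2 3 (adjusted p = 0.130), CA3 replicate 2 (0.105) or the samples numbered 1 (0.0725).

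Other genes stepped through CA2 from CA1 to CA3. Among those falling, Met had 1.48, 10.7, 1.27 and 1.94 CPM in CA3, below the 10.9 to 31.2 CPM of CA2, with a log2 fold change of CA2 over CA3 of 2.35 (standard error 0.44). Htr5b had 1.48, 6.56, 1.16 and 1.46 CPM in CA3 (log2 fold change of CA2 over CA3 2.04), and Lyzl4 had 0.618, 3.54, 0.423 and 0.324 CPM (2.71). In each of them CA3 replicate 2 was the highest CA3 sample. Arhgap12 (1.23) and Htr1b (1.91) lay between as well, with an adjusted p of 0.140 for Htr1b without CA2 2+4 and 0.0547 without CA2 3. Without CA3 replicate 2 the log2 fold change of CA2 over CA3 was 3.81 for Met, 3.15 for Htr5b, 4.29 for Lyzl4, 1.55 for Arhgap12 and 3.97 for Htr1b. Wfs1 was not apart from CA3 by the test (log2 fold change of CA2 over CA3 1.32, adjusted p = 0.154 from edgeR), with 8.65, 106, 13.4 and 13.8 CPM in CA3 replicates 1 to 4. Without CA3 replicate 2 it was 2.94 (adjusted p = 2.09e-07 from edgeR), so Wfs1 then lay between CA1 and CA3. Ndst4 (1.38), Olfm3 (0.63) and Pex5l (0.85) then lay between as well, and the number of CA1-listed genes placed between was 7 with and 11 without that library.

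Among the genes rising from CA1 through CA2 to CA3, Frem3 had the largest step of the named genes. This matrix protein gene, listed for CA3, had 0, 0.921, 0.116 and 1.86 CPM in CA1, 8.13, 7.12 and 8.96 CPM in CA2 and 97.0, 99.4, 96.4 and 90.1 CPM in CA3. All CA2 samples lay above all CA1 samples, and the level in CA2 was still about 12-fold below CA3. The log2 fold change was 3.89 for CA2 over CA1 (edgeR adjusted p = 1.98e-06, standard error 0.44) and -3.57 for CA2 over CA3 (standard error 0.26). Unc5d, a netrin receptor, had 9.59, 17.3, 8.69 and 8.04 CPM in CA1, 31.9, 30.9 and 27.3 CPM in CA2 and 42.1 to 57.4 CPM in CA3. The matrix protein Svep1 had 2.99 to 5.45 CPM in CA1, 7.04 to 9.27 CPM in CA2 and 14.7 to 22.7 CPM in CA3, and Tnfaip8 had 0.644 to 2.32, 4.43 to 5.36 and 7.13 to 10.4 CPM in the same order. Without CA2 3, Unc5d (adjusted p = 0.0892) and Tnfaip8 (0.0928) were not apart from CA3, nor was Tnfaip8 without the samples numbered 1 (0.0830). Fxyd7, a regulator of the sodium pump, had 13.9, 5.16 and 11.5 CPM in CA2 against 3.82 to 6.03 CPM in CA1, where CA2 2+4 overlapped CA1. Its call between CA1 and CA2 was lost without CA1 replicate 1 (adjusted p = 0.0780), CA2 1 (0.163), CA2 3 (0.121) or the samples numbered 1 (0.314).

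Of the 14 genes listed for CA3, Frem3 and Fxyd7 were called between CA1 and CA2, the latter losing its call in 4 settings. The share was 14.3%, as over all genes tested, with no test of the difference, and the median log2 fold change of CA1 over CA2 was -0.61. The mean was higher in CA2 for 11 of them. Their summed level was 15.8, 21.3, 15.6 and 14.5 CPM in CA1, 42.8, 27.2 and 35.5 CPM in CA2 1, 2+4 and 3, and 304, 292, 292 and 274 CPM in CA3. All CA2 samples lay above all CA1 samples and far below CA3, but without Frem3 CA2 2+4 fell just below CA1 replicate 2. The study picked this list as higher in CA3 on these samples, so the gap to CA3 is no independent evidence. Of the 15 CA3 pyramidal markers listed for this comparison, 4 have an identifier, with adjusted p of 0.200 for Gjd2, 0.306 for Vgll3, 0.476 for Cyp26b1 and 0.695 for Bhlhe23 from edgeR and a median log2 fold change of -0.55.

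Of the 226 genes listed for DG, which the study picked on these samples, 13 were higher in CA1 and 25 higher in CA2 (16.8% against 14.3% of all genes tested, a difference that was not tested), with a median log2 fold change of 0. Their summed level was 1148, 1215, 1288 and 1256 CPM in CA1, 1103, 1415 and 1259.6 CPM in CA2 and 11591, 12407 and 12573 CPM in DG, with Adcy1 the most abundant, so the CA1 and CA2 samples overlapped. Of the 38 called, 12 lay beyond CA3, 4 between CA1 and CA3, and 22 were not apart from CA3. The 4 between became 1 without CA2 3. Zcchc12 (ENSRNOG00000013162) was higher in CA1, with 152, 107, 122 and 117 CPM in CA1, 31.0, 46.2 and 33.5 CPM in CA2 and 554, 490.2 and 463 CPM in DG (log2 fold change of CA1 over CA2 1.75, standard error 0.14). Without CA2 2+4 it was also lower in CA2 than in CA3 (log2 fold change -0.63, adjusted p = 0.00815 from edgeR). Zmat4 followed at 19.4 to 26.9 CPM in CA1 and 7.41 to 11 CPM in CA2. Pdyn, which encodes the precursor of dynorphins, had 8.81 to 11.4 CPM in CA1, 1.54 to 3.92 CPM in CA2 and 169 to 221 CPM in DG. Calml4, a calmodulin-like gene, was higher in CA2, with 0.928, 0, 0.464 and 0.309 CPM in CA1, 7.5, 4.95 and 3.71 CPM in CA2 and 6.80, 5.27, 5.08 and 3.73 CPM in CA3, on 14 counts in CA1. Of the 9 DG granule cell markers listed for this comparison with an identifier, Plk5 was called, at 0.187 CPM in CA1 and 0.862 CPM in CA2 (adjusted p = 0.0480 from edgeR). That call was lost in 15 of 25 settings, with adjusted p between 0.0517 and 0.172. They were the fits without CA1 replicates 2, 3 or 4, any CA2 sample, any CA3 sample or DG 3, and those with median-of-ratios scaling, 16 separate columns, CA1 and CA2 samples alone or thinning.

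Of the called genes without a symbol, those with the smallest p were abundant. ENSRNOG00000014006 had 68.4, 99.4, 82.6 and 80.1 CPM in CA1, 312, 289.6 and 322 CPM in CA2 and 372, 352, 379 and 399.7 CPM in CA3, a log2 fold change of CA2 over CA1 of 1.89 (standard error 0.11). ENSRNOG00000042978, also higher in CA2, had 82.7, 149, 115 and 91.2 CPM in CA1 and 588, 480.1 and 617 CPM in CA2. The groups of both were far apart and CA2 was not apart from CA3. ENSRNOG00000000800 was higher in CA1, with 227, 183, 175 and 191 CPM in CA1, 43.0, 48.7 and 47.5 CPM in CA2 and 55.7, 58.7, 45.8 and 39.7 CPM in CA3. ENSRNOG00000043182 had 138, 114, 109.9 and 125 CPM in CA1, 25.2, 37.3 and 29.8 CPM in CA2 and 44.1, 49.7, 38 and 43.0 CPM in CA3, and with a log2 fold change of CA2 over CA3 of -0.50 (adjusted p = 0.0359 from edgeR) it lay beyond CA3.

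Promoters are shown for genes of the CA1 and CA2 lists, each of which the study picked as high in 1 subfield, with the bases around the transcription start taken from RefSeq (GRCr8). Exactly 1 promoter of 300 bases was matched by symbol for 23 of the 34 genes of the CA1 list and 10 of the 14 genes of the CA2 list. Of the matched genes of each list, the most abundant and the one with the smallest p were taken. Capitals mark matches, on either strand, to the TATA box (TATAAA), the CCAAT box (CCAAT), the GC box (GGGCGG) and the cyclic AMP response element (TGACGTCA).
Wfs1 (chr14:78034955-78035254, + strand): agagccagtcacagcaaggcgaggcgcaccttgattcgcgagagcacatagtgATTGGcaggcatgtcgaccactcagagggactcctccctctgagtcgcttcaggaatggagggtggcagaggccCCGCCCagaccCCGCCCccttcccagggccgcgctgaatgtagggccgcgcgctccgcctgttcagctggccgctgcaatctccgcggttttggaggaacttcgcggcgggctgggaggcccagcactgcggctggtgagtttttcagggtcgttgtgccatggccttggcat
Olfm3 (chr2:205598709-205599008, + strand): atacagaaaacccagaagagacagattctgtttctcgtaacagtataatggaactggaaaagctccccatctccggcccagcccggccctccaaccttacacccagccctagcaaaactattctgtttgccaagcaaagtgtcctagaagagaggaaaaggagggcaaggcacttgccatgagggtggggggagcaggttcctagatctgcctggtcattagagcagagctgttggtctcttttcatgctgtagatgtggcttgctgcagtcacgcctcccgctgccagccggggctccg
Cyp1b1 (chr6:21094315-21094614, + strand): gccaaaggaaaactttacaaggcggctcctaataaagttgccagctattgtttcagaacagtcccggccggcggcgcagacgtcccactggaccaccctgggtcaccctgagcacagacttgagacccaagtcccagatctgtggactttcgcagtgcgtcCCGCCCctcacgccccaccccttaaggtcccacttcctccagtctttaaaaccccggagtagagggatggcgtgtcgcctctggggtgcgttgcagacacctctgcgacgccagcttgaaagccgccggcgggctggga
Amigo2 (chr7:130273686-130273985, - strand): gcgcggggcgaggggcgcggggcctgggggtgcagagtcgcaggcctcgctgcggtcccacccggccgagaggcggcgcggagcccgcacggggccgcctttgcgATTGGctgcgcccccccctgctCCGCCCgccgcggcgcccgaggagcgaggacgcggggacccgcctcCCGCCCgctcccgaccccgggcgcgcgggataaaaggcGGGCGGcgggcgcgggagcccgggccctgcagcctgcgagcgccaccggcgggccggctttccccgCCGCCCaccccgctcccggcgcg

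Wfs1 had 1 CCAAT box and 2 GC boxes in this window, Amigo2 had 1 and 4, Cyp1b1 had a single GC box, and Olfm3 held none of the motifs searched. GC boxes were found in 11 of the 23 CA1-listed promoters (47.8%) and 3 of the 10 CA2-listed promoters (30%), against 33.1% of all 33469 promoters. CCAAT boxes were found in 8 (34.8%) and 3 (30%), against 37.5%. A TATA box was found in 1 of each list (4.35% and 10%, against 14.2%), and the cyclic AMP response element in none (1.83% of all promoters). A match is a run of letters and not a binding site, and shares over so few promoters are descriptions only.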

How the data were processed

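Laser-captured cell layers were sequenced as stranded total RNA, and per the labels STAR was used by the authors to map reads to the rat genome, and raw counts per Ensembl gene were deposited. Strand use in counting is not stated, so values of overlapping, antisense or near-identical genes are uncertain. The authors' own comparison tables were not used. Repeated columns were found by a chi-square test and summed. Counts were fitted with edgeR 4.0.16 (R 4.3.3): TMM scaling, genes with more than 10 summed counts, 1 coefficient per subfield, quasi-likelihood tests with 10 residual degrees of freedom, and Benjamini-Hochberg adjustment over all genes tested. The common dispersion was 0.0189. The alternatives were DESeq2 1.42.0, median-of-ratios scaling, other count filters, 16 separate columns, CA1 and CA2 alone, a replicate block, thinning and leaving out each sample.

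In each direction, symbols were named from the 10 smallest p at 10 CPM or more with a fold of at least 2 and no overlap, the 5 largest folds at 5 CPM or more, the 3 smallest p of each gene list, the study's CA1 and CA2 lists, and the 5 smallest p beyond and between. Ahcyl2, Adcy1, Pdyn, AY172581.19 and genes named for a small count were chosen after their values were seen. The members and lists were chosen with earlier results of these data known.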

Additional observations from a re-analysis of the deposited data

Results flagged for a closer look

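In 128 groups of 4 samples, over 59 genes, the list sums and the position in CA1 and CA3, the highest or lowest sample was compared with the others, and 17 groups had a sample far from the rest of its group. Chance marks about 1 in 20 groups (5%). Of the 17, 11 were CA3 replicate 2, 13 in all were in CA3 and 4 in CA1. The causes were not tested.

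CA3 replicate 2 stood high above the other CA3 samples for the summed CA1 list (336 CPM) and for Wfs1 (106 CPM), Met (10.7 CPM), Htr5b (6.56 CPM), Htr1b (4.92 CPM), Lyzl4 (3.54 CPM), Ackr2 (2.94 CPM), Drd5 (0.777 CPM) and Wnt3a (0.345 CPM). It stood low for Zmat4 (6.91 CPM) and Cdk15 (0 CPM). In other CA3 samples, Cyp1b1 was low in replicate 1 (12.7 CPM) and Mybpc2 was seen in replicate 4 alone (0.162 CPM).

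In CA1, Galr1 was high in replicate 1 (7.53 CPM) and Unc5d was high in replicate 2 (17.3 CPM). Replicate 4, the library with the fewest counts, was low for Htr5b (45.8 CPM) and Kcnc4 (2.17 CPM).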

How the results depend on the processing

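The number of genes that separated CA1 from CA2 stayed within 1.5 times its value of 2458 in all settings but the replicate block of 16 columns. It was 2562 with DESeq2, 2462 with median-of-ratios scaling, 2592 without a count filter, 2537 with filterByExpr, 2858 with 16 separate columns, 2372 with CA1 and CA2 samples alone and 1957 after thinning to the lowest total. Leaving out each sample gave 1724 to 2537 called genes, 743 to 1204 higher in CA1, 966 to 1406 higher in CA2, 729 to 959 with a fold of 2 or more, 220 to 348 beyond CA3, 157 (without CA2 2+4) to 280 between, with 163 without CA2 3, 1288 to 2000 not apart and a position of 0.566 to 0.660. In every setting 52.1% to 57.0% of the called genes were higher in CA2, and no gene shared with the 2458 changed direction.

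With the replicate block of 16 columns, 3850 genes were called, 1798 were higher in CA1, 679 lay beyond CA3 and 601 between. With the replicate block and the summed samples at number 2, 3290 were called, 565 lay beyond and 439 between, and at number 4 the counts were 3545, 639 and 470. The replicate block assumes that a number stands for 1 rat, and the cause was not tested. Of 58 genes chosen by the naming rule, none reversed in the settings that gave a value (57 genes with DESeq2, 55 with filterByExpr, 58 in the others), and 10 lost their call in at least 1. At under 1 CPM, depth limits which differences can be called.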
